A study of Homo sapiens and Mus musculus with 100 samples.

Results

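S100A2, S100A4, S100A6, S100A10, S100A11, S100A13, S100A14, S100A16 and S100P were followed in every human and mouse table of a study of vitamin B2 (riboflavin) and the aryl hydrocarbon receptor (AhR). These are 9 of the 20 genes with an S100 symbol, and of all 28035 genes, that the human tables list. The 20 include S100PBP, which binds S100P and is not itself an S100 protein. The 9 were taken by symbol in all 6 human tables, and by the mouse spelling in both mouse tables. The mouse tables list 8 of them (S100p is not among them) among 17 genes with such a symbol, S100pbp included, and 24940 genes in all. The genes were selected on expression results of these same tables, the HepG2 deprivation differences among them, and those differences are therefore given below as descriptions. The adjusted p-values of the other comparisons come from fits to whole tables, and they are no independent evidence about genes picked in this way.

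S100 proteins are small proteins with a pair of EF-hands, the helix-loop-helix fold that binds calcium. Most work as dimers that change shape when calcium rises and then grip partners such as annexins, cytoskeletal proteins and p53. Some are released from cells and bind the receptor AGER (RAGE). Most of the human genes lie in one cluster on the long arm of chromosome 1, and several of them are low in normal hepatocytes and higher in bile duct epithelium and in liver tumour cells.

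HepG2, a line from a human liver cancer, was grown in control or vitamin B2-deprived medium for 3, 6, 9 or 12 days, with 3 libraries per medium and day. Caco-2, a line from a human colon adenocarcinoma, was compared in the same media at day 9, with 3 libraries each. At day 12, HepG2 cells in both media were also compared without and with an AhR inhibitor (10 µM, per the file headers), without and with an inhibitor of the tryptophan-degrading enzymes IDO and TDO, and with a guide RNA against AhR or a control guide, with 3 libraries in each of 4 groups per table. A further HepG2 table at day 12 crosses DMSO or Kyn, as the labels write it, with no inhibitor or the AhR inhibitor, again with 3 libraries per group, and its labels do not give the vitamin B2 state of the medium. Mouse AhR-flox hepatocytes in control or deprived medium carried the adenovirus Ad-Cont or Ad-Cre, with 3 libraries per group and a label of 4 weeks. Livers of mice kept for 4 weeks on control or vitamin B2-deficient diet gave 4 columns per diet. The labels name no inhibitor compound, guide site, floxed exon or clone. Libraries with and without AhR inhibitor in the table on both media carry separate dates in their headers. Those with inhibitor name no sequencing run, and what the dates stand for is not given. Inhibitor and date therefore cannot be told apart there, while each deprivation difference lies within 1 date.

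The 98 columns of values held between 4049400 reads (Kyn table) and 19642000 reads (liver), to the nearest 100. In the AhR inhibitor table, libraries with inhibitor held 12576200 to 19430100 reads and those without 5891700 to 8977100. Replicate 3 of the control-medium cells with AhR inhibitor differed more from its group than the others did: its chi-square per gene was 29.4 against replicate 1 and 27.6 against replicate 2, and that of replicates 1 and 2 was 7.81. In HepG2 all 10 hepatocyte markers averaged at least 1 TPM (transcript levels scaled by length and by library). In Caco-2, 5 of 8 enterocyte markers did, against 2 of 8 in HepG2. All 10 hepatocyte markers did in Caco-2 as well, so the hepatocyte count does not separate the lines. In the mouse hepatocytes and livers all 8 hepatocyte markers that the tables list did. Levels are TPM from libraries that read the 3′ ends of transcripts, and they are compared between samples and not between genes. The listed TPM do not add up to the same total in every library. At day 12 of the time course the totals were 389047 to 397182 in control and 368224 to 370980 in deprived cells. Differences are on the scale of log2(TPM + 1), which understates the change of genes near 0, such as S100A2 in every human table and S100A14 in HepG2. Beside counts of members called, the share of all tested genes called in the same comparison is printed, at an adjusted p below 0.05 with limma.

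On hg38, 8 of the 9 human genes lie on the minus strand of chromosome 1. S100A10 (151982910 to 151994238) and S100A11 (152032506 to 152037035) stand at one end, and S100A6 (153534600 to 153536241), S100A4 (153543619 to 153545806), S100A2 (153561109 to 153565830), S100A16 (153606883 to 153609355), S100A14 (153614256 to 153616332) and S100A13 (153618800 to 153634092) follow. S100P lies on the plus strand of chromosome 4 (6693839 to 6697170). The S100A13 transcript of the time course, AhR inhibitor and guide RNA tables overlaps S100A1 on the opposite strand, and no strand setting is given, so reads of that pair cannot be assigned with certainty there. The files use a longer or shorter S100A13 transcript, and in Caco-2 another S100A16 transcript, depending on the table, so levels of these genes are not compared across tables.

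The promoters of S100A11 and S100P are shown because these were the members with the largest deprivation differences in HepG2, and they differ in the short motifs they hold. Each sequence is the 250 bases before a RefSeq start site on GRCh38.p14, written along the gene's own strand. In S100A11 (chr1:152037005-152037254, minus strand) the capitals mark a GC box, GGGCGG, and an AhR core, GCGTG. In S100P (chr4:6693628-6693877, plus strand) they mark a TATA box, TATAAA. The RefSeq start sites lie 31 bases (S100A11) and 39 bases (S100P) inside the transcripts whose coordinates are given above. The marked AhR core and TATA box therefore fall within those transcripts.
S100A11: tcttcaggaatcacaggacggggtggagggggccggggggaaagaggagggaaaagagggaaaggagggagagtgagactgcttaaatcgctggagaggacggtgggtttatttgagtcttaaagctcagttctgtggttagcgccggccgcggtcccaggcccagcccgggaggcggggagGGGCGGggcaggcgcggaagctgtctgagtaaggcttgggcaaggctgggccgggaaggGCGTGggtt
S100P: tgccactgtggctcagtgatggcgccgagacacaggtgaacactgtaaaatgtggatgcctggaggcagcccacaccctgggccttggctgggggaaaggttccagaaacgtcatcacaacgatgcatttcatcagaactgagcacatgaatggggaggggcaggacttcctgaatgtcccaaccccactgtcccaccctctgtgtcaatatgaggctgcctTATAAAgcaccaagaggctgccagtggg
All 9 human members matched RefSeq promoters, at 13 start sites. Searched on both strands, the AhR core stood in at least 1 promoter of 6 members (S100A2, S100A6, S100A10, S100A11, S100A13 and S100A16) and in 32.2% of all 35116 promoters. The GC box stood in 5 members (S100A6, S100A10, S100A11, S100A13 and S100A16) and in 42.6% of all promoters, and the TATA box in 3 members (S100A4, S100A13 and S100P) and in 10.7%. A match is a run of letters and not a binding site.

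In the HepG2 time course S100A11 and S100P were higher in deprived than in control cells at every day. S100A11, which binds annexins and acts in membrane repair and growth control, stood at 90.8, 87.6 and 83.4 TPM in the control libraries of day 3 and at 128, 123 and 123 TPM in the deprived ones. At day 6 it read 19.8, 19.8 and 19.6 TPM in control and 70.7, 65.9 and 69.7 TPM in deprived cells. By day 12 it read 4.92, 6.93 and 4.14 TPM in control cells and 83.1, 71.3 and 69.0 TPM in deprived cells. Every deprived library was above every control library of its day, and the gap widened as the control level dropped. The log2 difference grew from 0.51 ± 0.10 on day 3 (SE, n = 3 libraries per group, as in every human and hepatocyte group here) to 1.75 ± 0.10 on day 6, 3.01 ± 0.10 on day 9 and 3.59 ± 0.10 on day 12. In bulk RNA such as this, more cells that express a gene and more RNA per cell cannot be told apart.

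S100P, a RAGE ligand that also binds ezrin, the linker of membrane and actin, stood higher in deprived cells throughout, while its control level dipped at day 6. It read 319, 318 and 342 TPM in control cells and 471, 515 and 492 TPM in deprived cells at day 3. At day 6 it read 171, 156 and 177 TPM against 619.7, 688 and 652 TPM. At day 12 it read 381, 375 and 433 TPM against 831, 902 and 849.7 TPM. The groups lay apart on each day, and the log2 difference ran from 0.59 ± 0.09 (day 3) over 1.95 ± 0.09 (day 6) and 1.66 ± 0.09 (day 9) to 1.12 ± 0.09 (day 12).

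S100A6 (calcyclin), which binds annexins and the ubiquitin-ligase adaptor CACYBP, was lower at day 12 than at day 3 in both media. Its control libraries read 578, 569 and 597 TPM at day 3 and 141, 153 and 136 TPM at day 12, and its deprived libraries 638, 570.2 and 599.5 TPM and 184, 168 and 184 TPM. The day 12 groups lay apart, with a log2 difference of 0.32 ± 0.08, but after quantile normalization it was 0.15 and not called. S100A10 (p11), the partner of annexin A2 on the plasma membrane and the member whose loops no longer bind calcium, read 25.0, 28.6 and 23.0 TPM in control and 48.7, 42.5 and 46.7 TPM in deprived cells at day 12. That difference was 0.83 ± 0.07, while at day 9 the values were 50.9, 53.3 and 47.7 TPM against 49.7, 45.3 and 49.9 TPM, with overlap. S100A16, a widely expressed member, showed its difference at days 9 and 12, and its day 12 values of 9.96, 12.5 and 11.6 TPM in control and 18.0, 19.5 and 21.0 TPM in deprived cells gave 0.73 ± 0.10.

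S100A2, a nuclear member that binds p53, was also higher in deprived cells at days 6, 9 and 12 (0.75, 1.16 and 0.80), at low levels. At day 12 it read 1.21, 1.20 and 0.219 TPM in control and 2.25, 1.92 and 2.27 TPM in deprived cells. The remaining 3 members were not called higher at any day. S100A4, which binds non-muscle myosin and is known from metastasis, was lower in deprived cells at day 6, with 32.3, 26.9 and 36.5 TPM against 19.7, 22.6 and 16.7 TPM (−0.67 ± 0.11). By day 12 its groups overlapped, with 12.5, 11.3 and 13.0 TPM in control cells and 12.7, 10.7 and 12.9 TPM in deprived cells. S100A13, which takes part in the release of FGF1 and interleukin-1α, was also lower at day 6 (−0.36 ± 0.09), and S100A14, an epithelial member, stayed at or under 3.37 TPM in every library with a day 12 difference of −0.16 ± 0.18.

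As a description of the values that led to their choice, 2 members were called higher with deprivation at day 3, where 4.74% of all tested genes were called. At day 6, 4 were called higher and 2 lower (33.0% of all genes called), at day 9, 5 higher and 1 lower (49.1%), and at day 12, 6 higher and 0 lower (52.4%). The median difference of the 9 was 0.08 at day 3 and 0.73 at day 12, beside 0.02 and 0.10 over all genes. Between the called and the remaining members at day 12, S100A6 at 0.32 was the lowest inside (called higher on the deposited scale and not after quantile normalization) and S100A4 at −0.02 the next outside. The summed TPM of 10 hepatocyte markers was 33204 to 34838 in control and 13918 to 14200 in deprived cells at day 12, and that of 6 cholangiocyte (bile duct) markers 250.2 to 263 against 1239.6 to 1276. Of the 4 cholangiocyte markers tested, 3 were called higher and 1 lower, so the sum does not stand for each marker. The part of these marker levels in the S100 results was not tested.

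**Figure D1:**
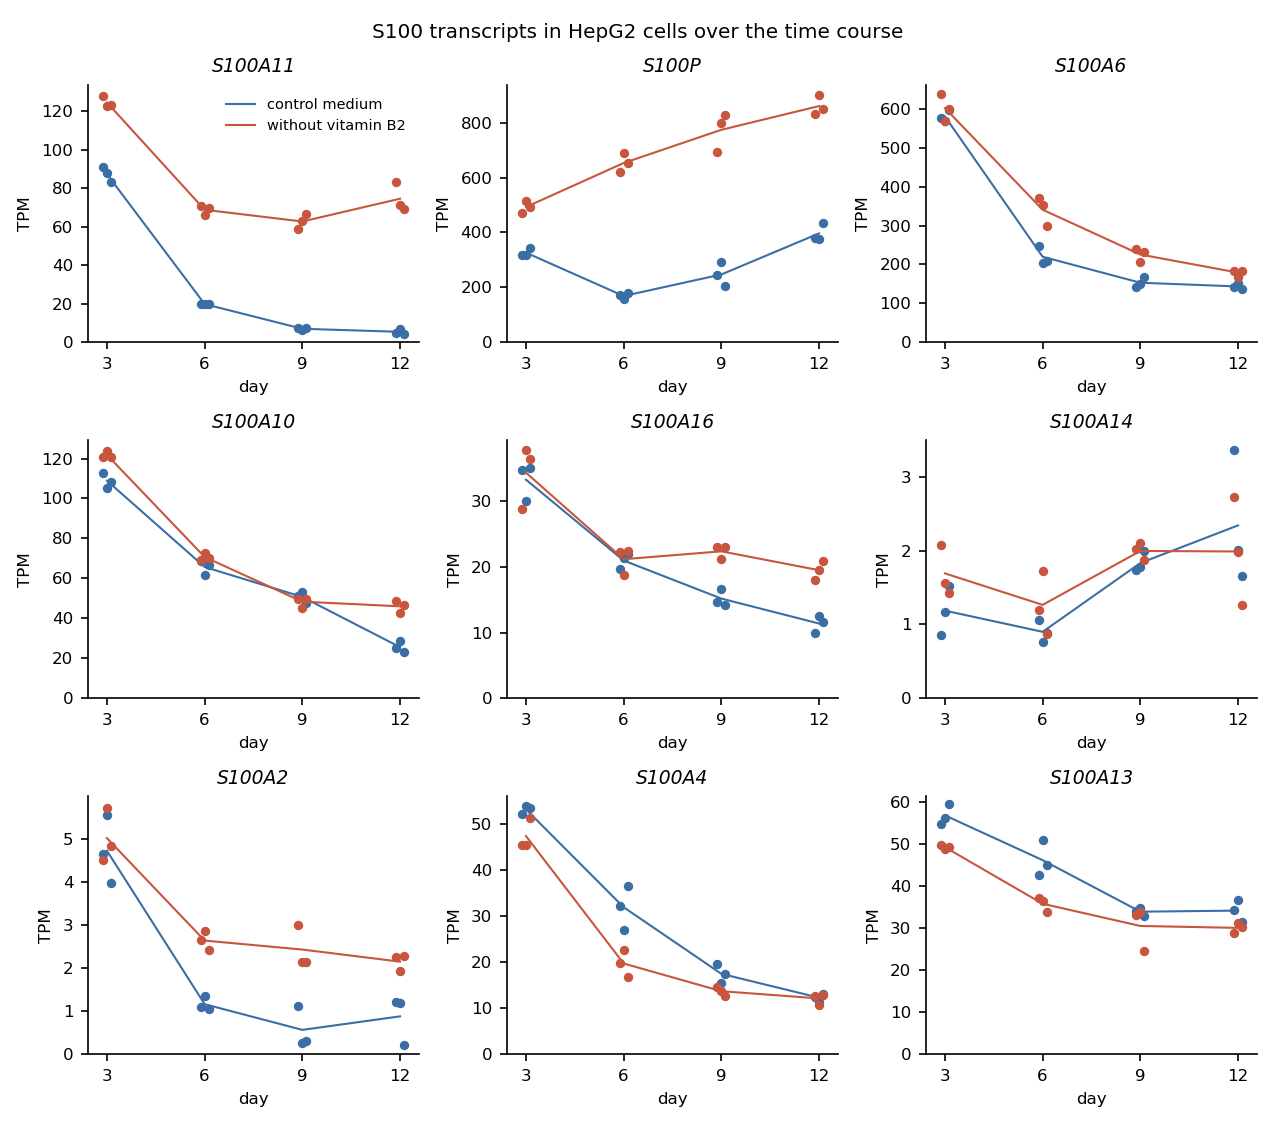
TPM of the 9 genes in HepG2 cells at days 3, 6, 9 and 12 (x axis), with 1 point per library and lines through the means of 3 control or 3 vitamin B2-deprived libraries. S100A11 drops from 83.4 to 90.8 TPM to 4.14 to 6.93 TPM in control cells and stands at 69.0 to 83.1 TPM in deprived cells at day 12.

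Within each medium these genes differed between days, and this comparison asked how far the control culture changed. From day 3 to day 12 in control cells 2 members rose and 7 fell, where 66.9% of all genes were called. S100A11 fell by 3.82 ± 0.10 on the log2 scale (limma, adjusted p = 1.8e-18), and S100A10 (−2.06 ± 0.07), S100A4 (−2.03 ± 0.11) and S100A6 (−2.01 ± 0.08) fell too. The median of the 9 was −1.65, beside −0.21 over all genes. S100P (0.28 ± 0.09) and S100A14 (0.59 ± 0.18) were the members that rose, and each call rested on 1 control library of day 12: without replicate 3 the adjusted p of S100P was 0.0718, and without replicate 1 that of S100A14 was 0.0641 (limma). The hepatocyte marker sum was 13929 to 14518 TPM in control cells at day 3, against the higher day 12 range above.

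In deprived cells 7 members fell from day 3 to day 12 and 1 rose (49.7% of all genes called), with a median of −0.78 beside −0.12. S100A11 fell by 0.74 ± 0.10 (limma, adjusted p = 4.1e-06), S100A4 (−1.89) and S100A6 (−1.75) fell further, and S100P rose (0.80 ± 0.09). S100A14 was at 0.13 ± 0.18 (limma, adjusted p = 0.58). The change of the deprivation effect from day 3 to day 12 was called for 5 members, all upward, where 37.7% of all genes were called. The terms were 3.09 ± 0.15 for S100A11 (limma, adjusted p = 3.7e-13), 0.67 ± 0.10 for S100A10, 0.69 ± 0.14 for S100A16, 0.53 ± 0.13 for S100P and 0.72 ± 0.27 for S100A2. The call of S100A2 was lost in 7 of 12 fits that each left out 1 library (limma, adjusted p up to 0.144): control replicates 1 and 2 and deprived replicates 1 and 3 of day 3, and control replicate 3 and deprived replicates 1 and 3 of day 12. S100A4, S100A6, S100A13 and S100A14 did not pass, so their deprivation effects were not shown to differ between these days. This term contains the day 12 deprivation difference.

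In the other 3 HepG2 tables with a deprived arm at day 12, the same direction held for S100A11 and S100P. Cells without AhR inhibitor read 4.27, 3.60 and 1.63 TPM of S100A11 in control medium and 143, 141 and 142 TPM in deprived medium, a log2 difference of 5.16 ± 0.25. It was 4.27 ± 0.22 in cells without IDO/TDO inhibitor and 3.72 ± 0.12 with the control guide. For S100P the differences were 2.30 ± 0.17, 1.60 ± 0.12 and 1.82 ± 0.05 in these tables. S100A6 was higher in deprived cells of each (1.04, 0.50 and 1.02), as were S100A16 (0.54, 0.77 and 0.66) and S100A10 (0.44, 0.67 and 0.37). After quantile normalization S100A10 was at 0.26 without AhR inhibitor and 0.17 with the control guide, and was called in neither. S100A2 was at 1.25, 0.63 and 0.65, and S100A14 at 0.16, 0.58 and 1.09. Without IDO/TDO inhibitor both were called, but not after quantile normalization (0.38 and 0.29). S100A13 was at −0.30, −0.52 and 0.24 and S100A4 was at 0.48 without AhR inhibitor and −0.64 without IDO/TDO inhibitor. The values of −0.30 and 0.48 lost their calls in 6 and 5 of 11 alternatives, and the 0.24 was 0.05 and not called after quantile normalization. As a description, 7 members were called higher and 1 lower without AhR inhibitor (61.5% of all genes called), 7 higher and 2 lower without IDO/TDO inhibitor (67.9%), and 7 higher and 0 lower with the control guide (60.7%). Without AhR inhibitor the count of 8 fell to 5 when deprived replicate 1 was left out.

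**Figure D2:**
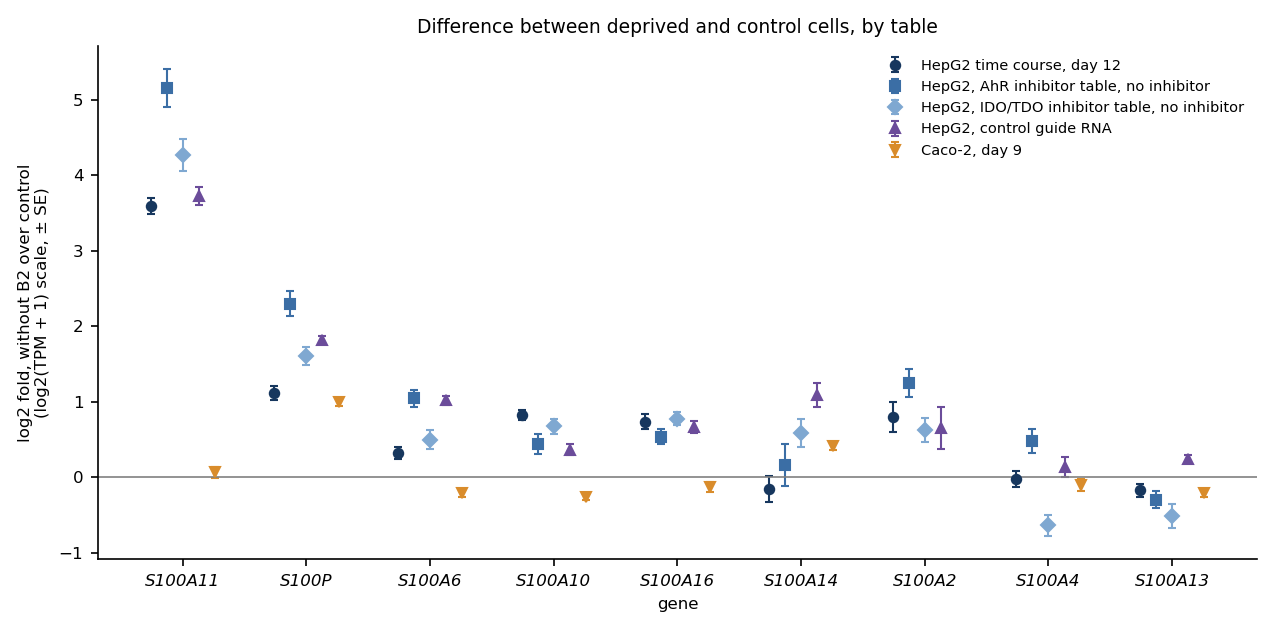
Difference between vitamin B2-deprived and control cells on the log2(TPM + 1) scale (y axis, ± SE of the fit) for the members tested in 5 tables, with 3 libraries per group. The S100A11 points of the HepG2 tables reach 5.16, and the Caco-2 point lies at 0.07.

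The IDO/TDO inhibitor table asked whether blocking these enzymes, which start the path from tryptophan to kynurenine, alters the response. CYP1A1, the classical AhR target, was lower with the inhibitor in deprived cells (−1.22 ± 0.08). S100A11 read 4.85, 2.40 and 2.19 TPM in control cells and 80.6, 74.7 and 72.4 TPM in deprived cells. With the inhibitor it read 2.77, 3.58 and 4.71 TPM in control and 5.01, 4.08 and 4.51 TPM in deprived cells. The deprived cells with inhibitor thus lay far below those without and close to the control cells. S100P read 1479, 1489 and 1456 TPM in deprived cells without inhibitor and 471, 566 and 467 TPM with it, beside 539, 525 and 403 TPM in control cells. S100A14 fell from 4.98, 3.59 and 4.74 TPM to 1.62, 0.795 and 1.80 TPM, below the control libraries of 2.35, 3.05 and 2.45 TPM.

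In deprived cells the IDO/TDO inhibitor lowered 7 of 9 members and raised 1, where 65.7% of all genes were called, with a median of −0.82 beside −0.26. The reference, deprived cells without inhibitor, is part of the deprivation differences on which the genes were selected. Differences from it are therefore no independent evidence. This limit also holds for the AhR inhibitor and the AhR guide in deprived cells. S100A11 fell by 3.80 ± 0.22 (limma, adjusted p = 6.6e-08), S100P fell by 1.56 ± 0.12 (5.5e-07) and S100A14 fell by 1.19 ± 0.18 (5.5e-05). S100A2 and S100A6 each fell by 0.82, and S100A16 fell by 0.63 ± 0.09. S100A2 rests on 9 to 45 reads per library here. S100A10 (−0.25 ± 0.10, limma, adjusted p = 0.031) and S100A13 (0.47 ± 0.16, adjusted p = 0.025) passed narrowly. After quantile normalization S100A10 was at 0.0022 (limma, adjusted p = 0.983), and it was not called without any 1 of the 3 deprived libraries or without inhibitor-treated replicate 3 (adjusted p up to 0.0981). S100A13 was not called by voom (adjusted p = 0.13), nor without deprived replicate 2 or 3 or inhibitor-treated deprived replicate 1 or 2 (limma, adjusted p up to 0.0737). S100A4 was at 0.18 ± 0.14 (limma, adjusted p = 0.25).

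In control medium the IDO/TDO inhibitor called 0 of 9 members by limma, where 0.00872% of all genes were called. At an unadjusted p below 0.05 the count was also 0, and voom on recovered reads called 0. The difference in S100A11 was 0.21 ± 0.22. With the inhibitor present, deprivation called 1 member, S100A10 (0.43 ± 0.10), where 1.39% of all genes were called. That call was lost without any 1 of the control libraries or without deprived replicate 1 or 2, and the differences of S100A11 and S100P were 0.26 ± 0.22 and 0.04 ± 0.12.

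The deprivation effect itself differed with the inhibitor for 6 of 9 members, all downward, where 53.7% of all genes were called. The terms were −4.01 ± 0.30 for S100A11 (limma, adjusted p = 1.6e-06), −1.56 ± 0.17 for S100P, −1.29 ± 0.26 for S100A14, −0.91 ± 0.23 for S100A2, −0.79 ± 0.18 for S100A6 and −0.75 ± 0.12 for S100A16. Their median over the 9 members was −0.79, beside −0.27 over all genes. These terms contain the deprivation difference without inhibitor, among the values the genes were selected on, so their direction is no independent evidence. The hepatocyte marker sum was 47124 to 48179 TPM in control cells, 20391 to 21193 TPM in deprived cells and 44833 to 45337 TPM in deprived cells with inhibitor. The cholangiocyte marker sum was 99.9 to 119, 702 to 752 and 112 to 122 TPM in these groups. Their part in the S100 results was not tested.

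The AhR inhibitor table asked whether the response needs the receptor's activity. CYP1A1 averaged 14.6 TPM in deprived cells and 1.63 TPM in deprived cells with AhR inhibitor, a log2 difference of −2.57 ± 0.17. S100A11 in deprived cells was 143, 141 and 142 TPM without and 99.6, 111 and 106 TPM with the inhibitor. It read 4.73, 2.25 and 3.71 TPM in control cells with inhibitor, so the deprived libraries remained far above. The groups of deprived cells lay apart for S100A11, yet the difference of −0.43 ± 0.25 did not pass (limma, adjusted p = 0.2). For S100P the deprived libraries read 1501, 1465 and 1436 TPM without and 1129, 1236 and 1057 TPM with inhibitor (−0.37 ± 0.17, limma, adjusted p = 0.12). These groups lay apart too. Each SE draws on the spread of all groups fitted together, the control-medium libraries included. Not passing therefore does not show equal levels.

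With AhR inhibitor, deprivation was described by 7 members called higher and 0 lower, where 57.5% of all genes were called. The differences were 4.58 ± 0.25 for S100A11, 1.41 for S100P and 1.21 for S100A6. Without the library that stands apart, control-medium replicate 3, the count was 5, and these values were 4.62, 1.66 and 1.11.

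In deprived cells 1 of 9 members, S100A6, rose with the AhR inhibitor (1.07 ± 0.11, limma, adjusted p = 1.3e-05), where 40.3% of all genes were called. The hepatocyte marker sum was 13444 to 14151 TPM in deprived cells without and 19152 to 19315 TPM with the inhibitor. The cholangiocyte sum was 1244 to 1368 against 929 to 987 TPM, and of 4 tested cholangiocyte markers 1 was called higher with the inhibitor and 2 lower. The stellate-cell and fibroblast sum was 81.7 to 90.9 against 42.1 to 49.7 TPM. Only 1 of the 7 markers in that last list averaged at least 1 TPM, so its sum does not show such cells in this line. The part of these marker levels in the S100 results was not tested. The S100A6 libraries read 208, 167 and 177 TPM without and 383, 376 and 394 TPM with the inhibitor, and the count was 2 without replicate 3 of the deprived cells with inhibitor. In control medium 4 members rose and 3 fell, where 35.9% of all genes were called. Date and depth also differ between cells with and without AhR inhibitor, and cannot be told apart from it. S100A4 (1.06 ± 0.16), S100A6 (0.90 ± 0.11), S100A2 (0.75 ± 0.18) and S100P (0.53 ± 0.17) rose, and S100A13 (−0.67 ± 0.11), S100A16 (−0.45 ± 0.10) and S100A10 (−0.37 ± 0.13) fell. S100P was not called without any 1 of the 3 control libraries lacking inhibitor (limma, adjusted p up to 0.105). S100A10 was not called without any 1 of these or without inhibitor-treated replicate 3 (adjusted p up to 0.171). S100P read 345, 375 and 606 TPM in control cells with inhibitor, so that replicate 3 was the highest, and without this library its difference was 0.28 and 6 members were called.

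The deprivation effect differed with the AhR inhibitor for 4 of 9 members, where 22.5% of all genes were called: S100A13 (0.60 ± 0.15, limma, adjusted p = 0.013), S100P (−0.89 ± 0.24, adjusted p = 0.023), S100A4 (−0.69 ± 0.22) and S100A16 (0.43 ± 0.14). For S100A11 the term was −0.58 ± 0.35 (limma, adjusted p = 0.27). Each of these terms contains HepG2 deprivation differences, on which the genes were selected. The count was 2 when any 1 library was left out other than replicate 1 or 3 of the control cells with inhibitor. The calls of S100A4 and S100A16 were each lost in 9 of 12 fits that left out 1 library, with adjusted p up to 0.1 and 0.113 (limma). S100A4 kept its call only without control replicate 1, control with inhibitor replicate 3 or deprived with inhibitor replicate 1. S100A16 kept it only without deprived replicate 1, control with inhibitor replicate 1 or deprived with inhibitor replicate 3. S100P lost it without control replicate 1, deprived replicate 1, or deprived with inhibitor replicate 1 or 3 (adjusted p up to 0.0578).

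The guide RNA table compared cells with an AhR guide and with a control guide, all from 1 date. AHR RNA differed by −0.09 ± 0.13 between guides in control medium and by 0.17 ± 0.13 in deprived cells, and reads of a transcript's 3′ end do not test a cut in its coding part. CYP1A1 averaged 33.5 TPM in deprived cells with the control guide and 1.74 TPM with the AhR guide (−3.68 ± 0.12). S100A11 read 115, 146 and 128 TPM in deprived cells with the control guide and 117, 115 and 98.9 TPM with the AhR guide, with overlap. In control medium it read 9.93, 9.63 and 7.18 TPM and 12.8, 11.7 and 10.9 TPM. S100P read 550.5, 592 and 533 TPM in control medium with the control guide and 249, 252 and 258 TPM with the AhR guide, and in deprived medium 1896, 2083 and 1949 TPM against 1594, 1681 and 1534 TPM. The AhR guide libraries of S100P lay below the control guide libraries in both media.

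In control medium the AhR guide raised 3 members and lowered 1, where 36.7% of all genes were called. S100P fell by 1.14 ± 0.05 (limma, adjusted p = 1.1e-08), and S100A13 (0.30 ± 0.05), S100A6 (0.27 ± 0.06) and S100A11 (0.38 ± 0.12) rose. After quantile normalization S100A6 and S100A11 were no longer called (limma, adjusted p = 0.0975 and 0.0827), and S100A11 was also lost without control guide replicate 3 or AhR guide replicate 1 or 2 (up to 0.0848). In deprived cells S100A6 (0.53 ± 0.06) and S100A4 (0.54 ± 0.14) rose and S100P fell by 0.30 ± 0.05, where 12.0% of all genes were called. S100A4 was not called without control guide replicate 1 or 2 or AhR guide replicate 1 or 3 (limma, adjusted p up to 0.0961). S100A6 read 159, 182 and 172 TPM with the control guide and 263, 234 and 242 TPM with the AhR guide in deprived cells. S100A11 was at −0.22 ± 0.12 there (limma, adjusted p = 0.26).

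With the AhR guide, deprivation was described by 7 members called higher and 1 lower, where 53.2% of all genes were called, led by S100A11 (3.12 ± 0.12) and S100P (2.66 ± 0.05). The deprivation effect differed between guides for 3 members, where 14.4% of all genes were called. S100P gained (0.84 ± 0.07, limma, adjusted p = 1.2e-05), S100A13 lost (−0.39 ± 0.07, 0.0023) and S100A11 lost (−0.60 ± 0.17, 0.028). These terms too contain HepG2 deprivation differences, on which the genes were selected. The S100A11 term was not called without deprived control guide replicate 2 or 3, control-medium AhR guide replicate 1 or 2, or deprived AhR guide replicate 3 (limma, adjusted p up to 0.0705). The cholangiocyte marker sum was 139 to 152 TPM in control and 667 to 700.3 TPM in deprived cells with the control guide, and 197 to 212 and 787 to 820.4 TPM with the AhR guide, and its part in these results was not tested. With either guide, 3 of 4 tested cholangiocyte markers were called higher in deprived cells and 1 lower. Of all genes, 60.7% were called with the control guide and 53.2% with the AhR guide.

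**Figure D3:**
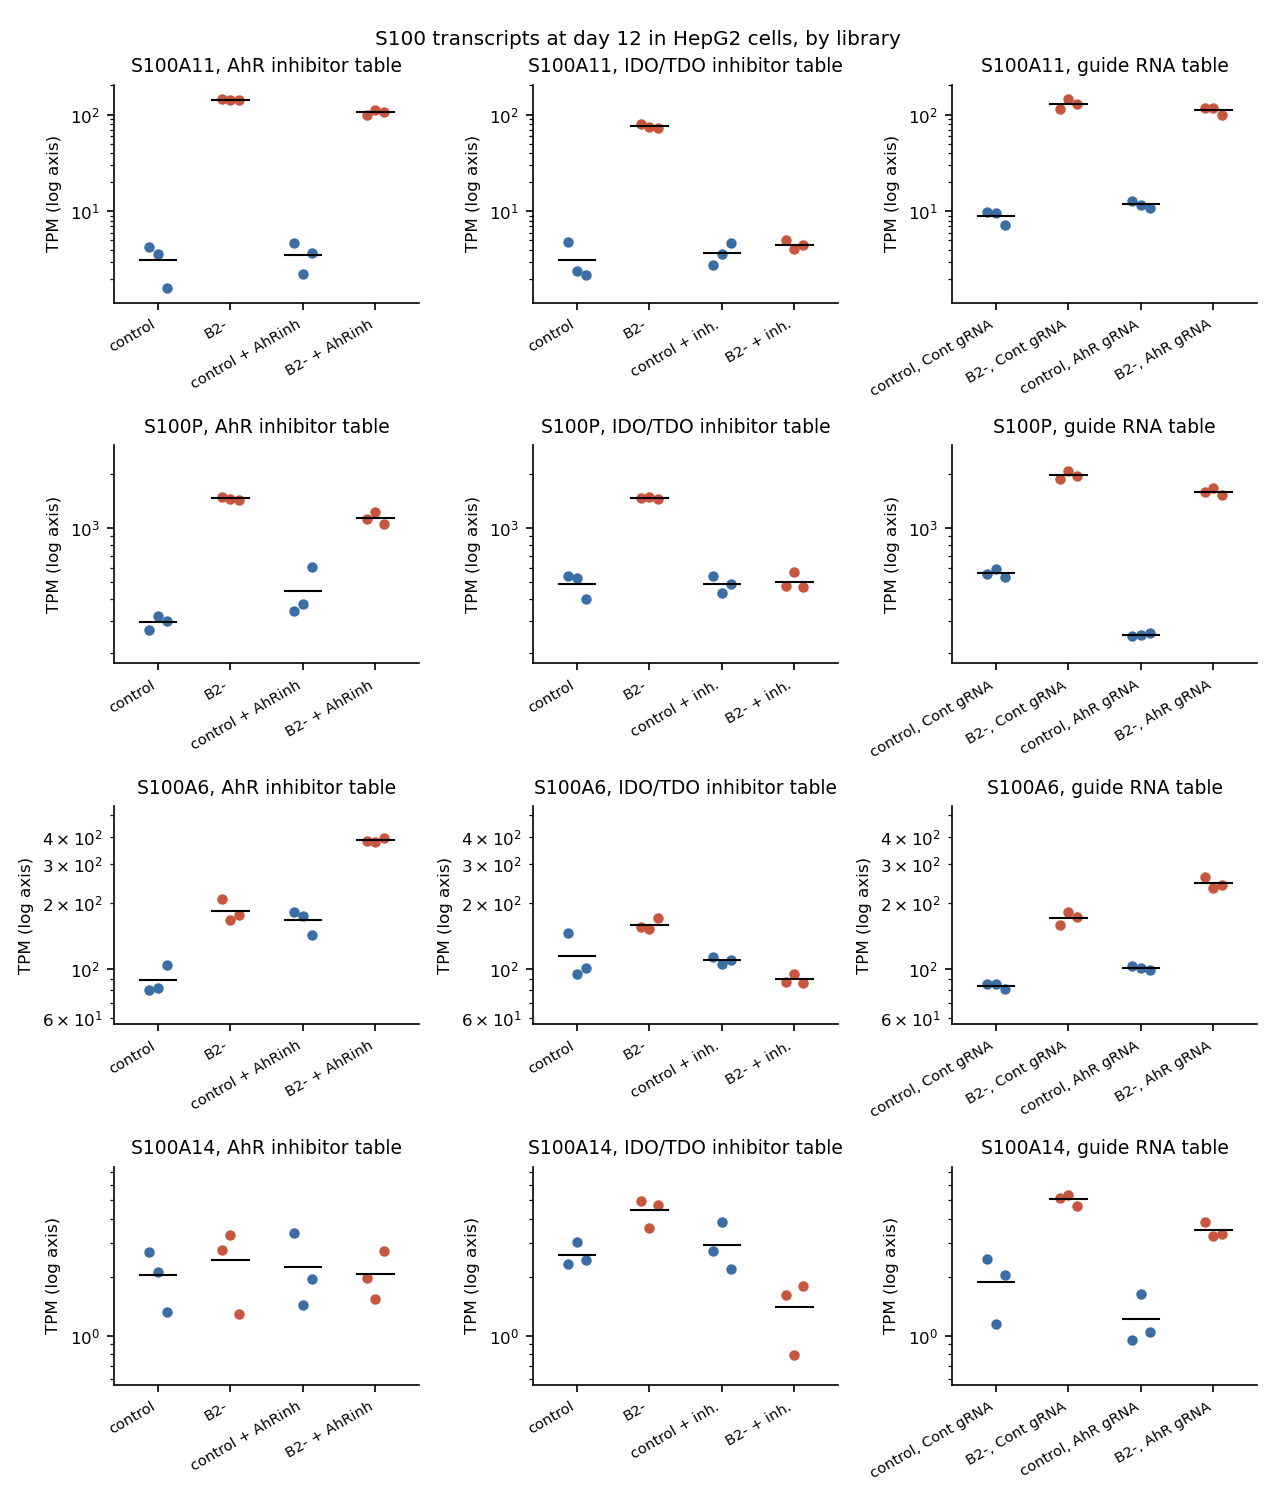
TPM on a log axis (y axis) of S100A11, S100P, S100A6 and S100A14 (rows) in the 4 groups of the AhR inhibitor, IDO/TDO inhibitor and guide RNA tables (columns), with 1 point per library and a line at the mean of 3. Deprived cells with IDO/TDO inhibitor read 4.08 to 5.01 TPM of S100A11, and deprived cells with AhR inhibitor or AhR guide 98.9 to 117 TPM.

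In the Kyn table neither Kyn (0.18 ± 0.17, limma, adjusted p = 0.52) nor the AhR inhibitor in DMSO (−0.41, adjusted p = 1) gave a called difference in CYP1A1. S100A11 read 4.22, 6.36 and 5.69 TPM in DMSO and 8.86, 9.88 and 10.1 TPM in Kyn, and 6.37, 4.94 and 6.30 TPM and 2.83, 3.11 and 5.40 TPM with the AhR inhibitor in DMSO and Kyn. S100A10 read 38.4, 36.9 and 38.7 TPM in DMSO and 52.8, 69.5 and 60.8 TPM in Kyn, and 34.3, 35.9 and 39.3 TPM and 32.6, 26.8 and 25.0 TPM with the inhibitor. Both genes were higher with Kyn alone and not with Kyn and inhibitor. S100P went the other way, with 839, 814 and 808 TPM in DMSO and 502, 542 and 549.5 TPM in Kyn, and 841, 883 and 827 TPM and 655, 648 and 677 TPM with the inhibitor.

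Of 8 members tested (S100A2, at most 0.725 TPM, was not), Kyn raised 3 and lowered 2, where 11.7% of all genes were called, with a median of −0.06 beside 0.02. S100A10 rose (0.66 ± 0.10, limma, adjusted p = 0.0012), as did S100A13 (0.36 ± 0.08) and S100A11 (0.74 ± 0.18, adjusted p = 0.018), and S100P (−0.63 ± 0.04, 5.6e-07) and S100A6 (−0.52 ± 0.15) fell. The call of S100A11 was lost without DMSO replicate 1 or Kyn replicate 2 or 3 (limma, adjusted p up to 0.0699). The call of S100A6 was lost without any 1 library but DMSO replicate 2 (up to 0.141). Without DMSO replicate 1 or Kyn replicate 3 the count was 3. S100A4, S100A14 and S100A16 did not pass.

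With the AhR inhibitor present, Kyn lowered 3 members and raised 0, where 10.8% of all genes were called: S100A6 (−0.78 ± 0.15), S100P (−0.37 ± 0.04) and S100A10 (−0.37 ± 0.10). S100A10 lost its call in 9 of 11 alternatives: without any 1 library but Kyn and inhibitor replicate 1 (limma, adjusted p up to 0.127), with no filter (0.087), after quantile normalization (0.152), by voom (0.054) and with the replicate block (0.0601). S100A11 was at −0.55 ± 0.18 (limma, adjusted p = 0.066). In DMSO the inhibitor called 0 of 8 members by limma, where 0.00% of all genes were called. At an unadjusted p below 0.05 the count was 1, and voom called 0.

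In cells with Kyn the AhR inhibitor lowered S100A11 (−1.19 ± 0.18, limma, adjusted p = 0.00051) and S100A10 (−1.09 ± 0.10, 9.4e-06) and raised S100P (0.31 ± 0.04), where 21.9% of all genes were called. The Kyn effect differed with the inhibitor for the same 3 members, where 8.94% of all genes were called. The terms were −1.29 ± 0.25 for S100A11 (limma, adjusted p = 0.0074), −1.03 ± 0.15 for S100A10 and 0.26 ± 0.06 for S100P. In cells with Kyn the inhibitor also lowered 4 of 4 tested cholangiocyte markers, whose summed TPM was 161 to 174 without and 116 to 124 with it, and the hepatocyte sum was 31270 to 32606 against 37405 to 37987 TPM. The part of these in the S100 results was not tested.

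**Figure D4:**
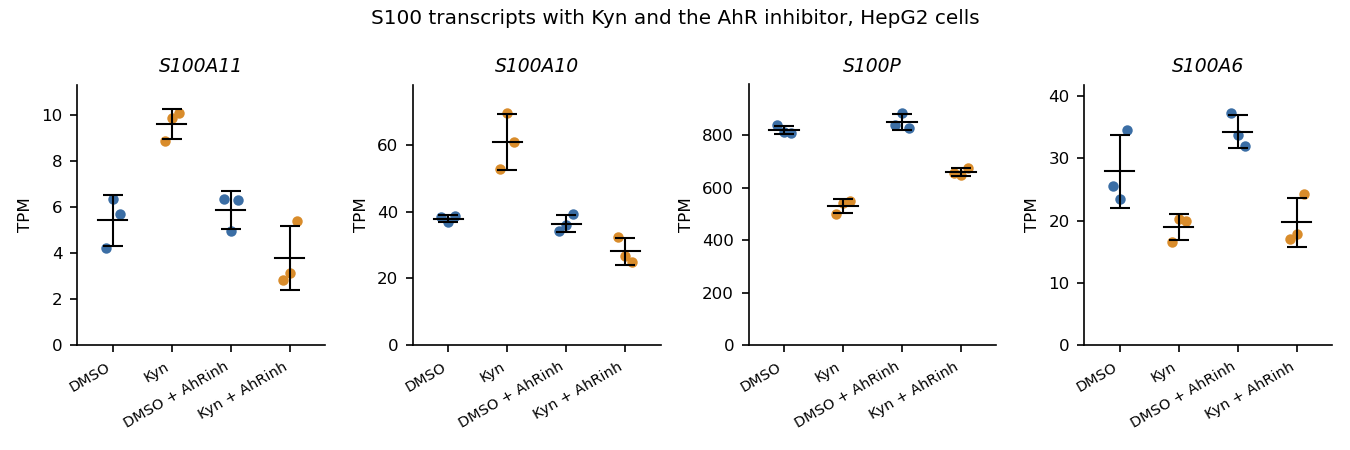
TPM of S100A11, S100A10, S100P and S100A6 (y axes) in HepG2 cells with DMSO or Kyn, without or with AhR inhibitor, with 1 point per library and the mean ± SD of 3. S100A10 stands at 52.8 to 69.5 TPM with Kyn alone and at 25.0 to 32.6 TPM with Kyn and inhibitor.

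The Caco-2 table asked whether deprivation moves these genes in another human line. S100P read 230.1, 239 and 242 TPM in control and 449, 481 and 489 TPM in deprived cells, and S100A14 362, 369.6 and 388 TPM against 498, 495 and 491 TPM. The groups lay apart for both. S100A11 read 201, 203 and 241 TPM against 222, 235 and 216 TPM, with overlap. Of 8 members tested (S100A2, at most 1.17 TPM, was not), 2 rose and 3 fell, where 33.7% of all genes were called, with a median of −0.12 beside −0.07. S100P rose (0.99 ± 0.05, limma, adjusted p = 4.3e-07), as did S100A14 (0.41 ± 0.05, 9.3e-05), and S100A10 (−0.26 ± 0.05), S100A6 (−0.22 ± 0.05) and S100A13 (−0.22 ± 0.04) fell.

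S100A11 (0.07 ± 0.07, limma, adjusted p = 0.52), S100A16 (−0.13 ± 0.07) and S100A4 (−0.11 ± 0.08) did not pass in Caco-2. After quantile normalization S100A6 and S100A10 were not called (limma, adjusted p = 0.455 and 0.052), which left 3 members. The enterocyte marker sum was 139.5 to 148 TPM in control and 87.3 to 93.1 TPM in deprived cells, the cholangiocyte marker sum 1067 to 1075 against 1050.0 to 1071 TPM, and the part of these in the results was not tested. A difference in response between the lines was not tested, because their tables were made separately.

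In mouse AhR-flox hepatocytes 7 of 8 members were tested, S100a14 reaching at most 0.461 TPM. Ahr RNA with Ad-Cre differed from Ad-Cont by −0.28 ± 0.09 in control medium (limma, adjusted p = 0.49) and by −0.47 ± 0.09 in deprived medium (0.022). S100a6 read 1688, 1623 and 1689 TPM in control and 883, 1055 and 1322 TPM in deprived cells with Ad-Cont, and 1709, 1869 and 1866 TPM against 1311, 1469 and 1443 TPM with Ad-Cre. In both pairs every deprived library lay below every control library. S100a11 read 149.9, 133 and 137 TPM against 110.1, 133 and 172 TPM with Ad-Cont, and the deprived libraries spread to both sides of the control ones.

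With Ad-Cont deprivation lowered 1 of 7 members, S100a6 (−0.64 ± 0.11, limma, adjusted p = 0.0032), where 9.78% of all genes were called. Without deprived replicate 1 the count was 2. S100a4 was at −0.58 ± 0.23, S100a10 at 0.18 ± 0.07, S100a11 at −0.04 ± 0.12, S100a16 at −0.02 ± 0.07, S100a13 at −0.07 ± 0.07 and S100a2 at −0.50 ± 0.41. S100a2 rests on 0 to 3 reads per library there. With Ad-Cre deprivation called 0 members by limma, where 0.329% of all genes were called. S100a6 was at −0.37 ± 0.11 there (limma, adjusted p = 0.22), 1 member had an unadjusted p below 0.05, and voom called 0. Ad-Cre called 0 members in control medium (0.0247% of all genes called, 1 at an unadjusted p below 0.05) and 0 in deprived medium (1.03% of all genes called, 2 at an unadjusted p below 0.05), by limma and by voom. The last count was 2 by limma without replicate 3 of the deprived cells with Ad-Cont. The deprivation effect differed between the viruses for 0 members (0.247% of all genes called, 0 at an unadjusted p below 0.05, and 0 by voom), with a term for S100a6 of 0.27 ± 0.15 (limma, adjusted p = 0.49).

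The Ad-Cont cultures also differed in markers of other liver cells, beside the S100a6 result, where 9.78% of all genes were called. The summed TPM of cholangiocyte markers was 833 to 931 in control and 256 to 589 in deprived cells, and 2 of 4 tested were lower (Spp1 −1.26, Krt19 −1.03). The stellate-cell and fibroblast sum was 34.6 to 41.0 against 12.8 to 24.5 TPM, with 3 of 5 lower (Dcn −1.48, Col1a2 −0.88, Col1a1 −0.64). In the macrophage list 3 of 5 were lower (C1qa −1.92, Cd5l −1.71, Csf1r −1.05), while its sum overlapped, at 88.9 to 103 against 71.6 to 154 TPM. The part of these cells in the S100a6 result was not tested.

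In mouse liver 6 of 8 members were tested, S100a2 being listed at 0 and S100a14 at most at 0.0630 TPM. S100a10 read 174, 254, 216 and 148 TPM on control diet and 301, 295, 349 and 118 TPM on deficient diet. S100a11 read 3.14, 4.09, 4.01 and 2.42 TPM against 2.26, 3.46, 4.66 and 2.25 TPM, and S100a6 4.08, 2.86, 2.37 and 1.22 TPM against 0.889, 1.58, 4.38 and 4.54 TPM. The diets overlapped for each of these. By limma 0 of 6 members were called, where 3.41% of all genes were called, and 1 had an unadjusted p below 0.05. Without the deficient column listed last the count was 1. Voom also called 0, and the largest difference was that of S100a4 (−0.95 ± 0.41, limma, n = 4 columns per diet, adjusted p = 0.19). Without the control column that reads 6.67 TPM, far above the others, the S100a4 difference was −0.57. S100a16 was at 0.13 ± 0.12 and S100a13 at 0.21 ± 0.12, and S100a13 was at 0.13 without the deficient column that reads 46.0 TPM.

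**Figure D5:**
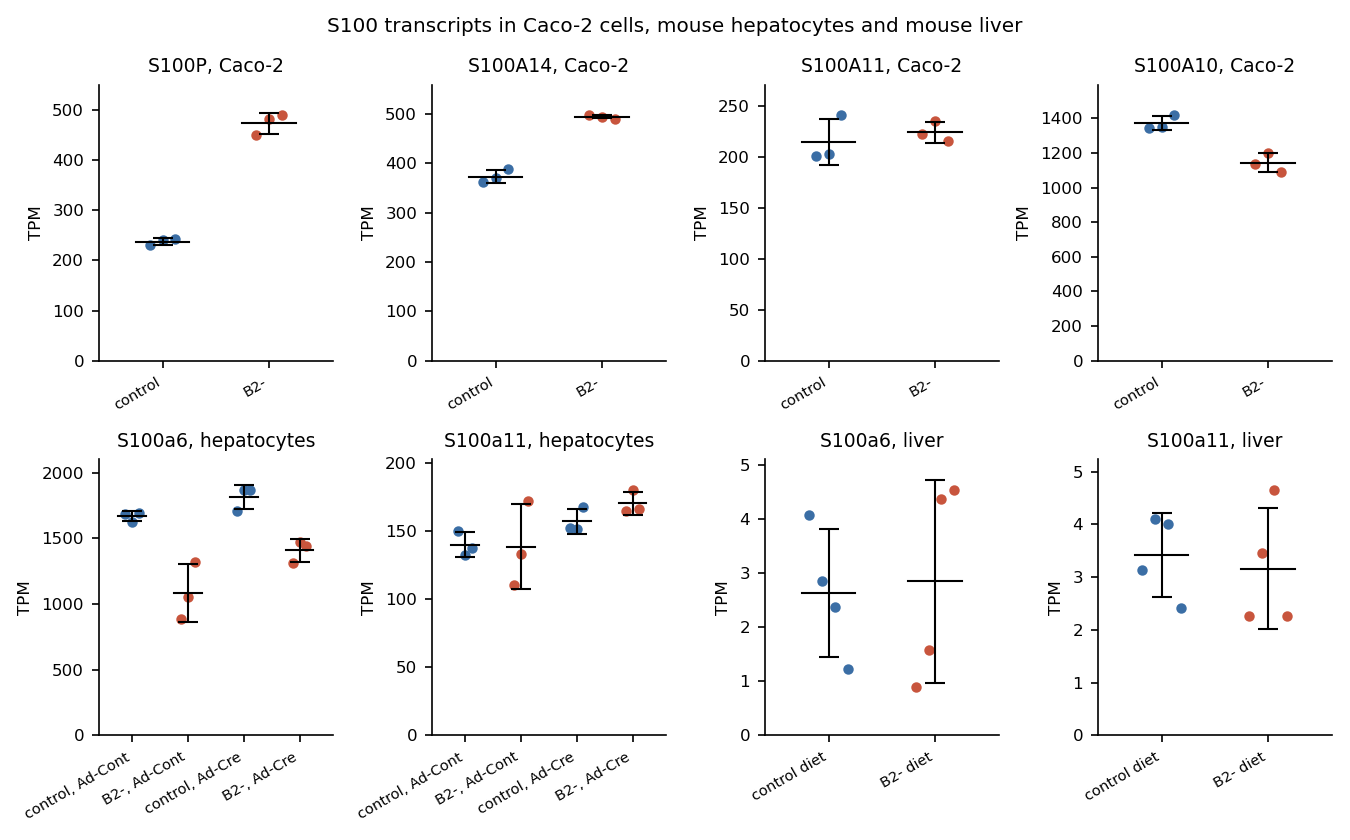
TPM (y axes) of S100P, S100A14, S100A11 and S100A10 in Caco-2 cells and of S100a6 and S100a11 in mouse hepatocytes and liver, with 1 point per library and the mean ± SD of 3 libraries (4 in liver). Deprived Caco-2 cells read 449 to 489 TPM of S100P, above 230.1 to 242 TPM in control cells, and the diets overlap in liver.

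The S100 genes outside the 9 were mostly too low to test. In the HepG2 time course 4 of the other 11 listed genes with an S100 symbol passed the filter: S100A1, S100A3, S100A9 and S100PBP (which binds S100P). The same 4 passed in the AhR inhibitor, IDO/TDO inhibitor and guide RNA tables, and S100A1 and S100PBP in the Kyn table. As a description, S100A3 and S100PBP were called higher with deprivation at day 12 of the time course (52.4% of all genes called). The same held without IDO/TDO inhibitor (67.9%) and with the control guide (60.7%). Without AhR inhibitor 3 of the 4 other S100 genes were called, 2 higher and 1 lower (61.5% of all genes called). S100A3 rests on 2 to 41 reads in the time course, 3 to 54 in the AhR inhibitor table, 5 to 25 in the IDO/TDO inhibitor table and 2 to 29 in the guide RNA table. These few reads leave its calls uncertain. S100A9, a partner in calprotectin and a neutrophil product, was listed at 0 in the 3 control libraries of day 12 and read 1.99, 2.06 and 1.59 TPM in the deprived ones. S100A9 in the IDO/TDO table read 3.71, 2.88 and 3.33 TPM in deprived cells and 0, 0.195 and 0 TPM in deprived cells with inhibitor. With the AhR guide S100A9 read 3.27, 3.18 and 2.55 TPM in deprived cells, below the 5.15, 7.08 and 5.82 TPM of the control guide. S100A9 passed the filter in these tables only through deprived cells, so no test of it is given, and its place in a count is no evidence.

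S100A1, known from heart and muscle calcium handling, was lower with deprivation in cells without AhR inhibitor (−1.64), without IDO/TDO inhibitor (−1.04) and with the control (−0.87) or AhR guide (−1.31), and at days 6 (−0.57) and 9 (−0.59) of the time course. It was not called at day 3 (−0.13) or day 12 (−0.12) of that course, with the AhR inhibitor (−0.15) or with the IDO/TDO inhibitor (−0.20). In control medium the AhR guide raised S100A1 (1.02 ± 0.06), from 68.6, 68.8 and 66.4 TPM to 145, 146 and 127 TPM. The overlapping S100A13 rose in the same comparison (0.30), and reads of the pair cannot be told apart without strand. In Caco-2, S100A9 (0.45), S100PBP (0.25) and S100A1 (−0.01) did not pass, and S100G, which averaged 0.764 TPM in control and 1.69 TPM in deprived cells, passed the filter through the deprived cells and is given without a test. In hepatocytes with Ad-Cont S100a1 rose (0.28 ± 0.05), while S100a3 (−0.22), S100g (0.30) and S100pbp (0.04) did not pass, and in liver S100a8 (0.71), S100a9 (0.73), S100pbp (0.38) and S100a1 (0.06) did not pass.

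A list of 29 partners of S100 proteins (annexins, ezrin, AHNAK, galectin-3, RAGE and others) and a list of 21 other EF-hand genes were followed beside the members. At day 12 of the time course 18 of 22 tested partners were higher in deprived cells and 2 lower, where 52.4% of all genes were called, with a median difference of 0.57 beside 0.10 over all genes. LGALS3, the galectin that binds β-galactosides, stood at 3.32 ± 0.11, and ANXA2, the S100A10 partner, at 1.57 ± 0.09, ANXA3 at 1.36 and ANXA4 at 1.24, while AHNAK (−0.79) and AGER (−0.61) were lower. Of 20 EF-hand genes 14 were higher and 1 lower (CAPN2, a calpain, 1.48, and NUCB2 −0.72), with a median of 0.41. A further list held the other chromosome 1 genes from 200 kb below the lowest to 200 kb above the highest member start there. This stretch takes in the gap between S100A11 and S100A6, so its genes are not all close to a member. Of 12 tested genes of the stretch, 7 were higher and 2 lower, with a median of 0.22.

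In deprived cells the IDO/TDO inhibitor lowered 18 of 23 partners and raised 3, where 65.7% of all genes were called, with a median of −0.48 beside −0.26. LGALS3 (−3.24 ± 0.12) and ANXA3 (−1.32) fell, and AHNAK (1.15) and PLG (1.33), the plasminogen that S100A10 binds, rose. It lowered 14 of 20 EF-hand genes, among them CAPN2 (−2.08) and RCN1 (−1.35), and raised 3. Of 11 genes of the chromosome 1 stretch it lowered 7 and raised 3. The AhR guide in deprived cells raised 2 and lowered 3 of 23 partners (12.0% of all genes called), with LGALS3 at −0.89. Kyn without inhibitor raised 5 of 22 partners and lowered 0 (11.7% of all genes called), among them ANXA2 (0.51) and PLG (0.54), and raised 5 of 20 EF-hand genes and lowered 0.

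In Caco-2, 7 of 21 partners rose and 6 fell, where 33.7% of all genes were called, with LGALS3 (−0.63) and ANXA4 (−1.07) lower and ANXA2 (0.41) and ANXA3 (0.65) higher, and 5 EF-hand genes of 21 rose and 6 fell. In hepatocytes with Ad-Cont 1 of 24 partners rose and 2 fell (Anxa1 −0.91, Ezr −0.62), where 9.78% of all genes were called, and 0 of 21 EF-hand genes rose and 3 fell. In liver the diet called 0 genes of either list by limma (3.41% of all genes called).

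Across the 24 libraries of the time course, which share medium and day, the genes whose log2 values ran most like S100A11 were CLDN4, a tight-junction claudin (Pearson r = 0.989), ITPR3, a calcium release channel (0.985), and TIMP1, a metalloproteinase inhibitor (0.984). For S100A10 they were TPM4, a tropomyosin (0.975), BEX3 (0.968) and PNP (0.966), and for S100A6 they were MAP1B (0.977), DCBLD2 (0.975) and TNS4 (0.960). These values describe the course over day and medium, which many genes share.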

How the data were processed

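Messenger RNA was measured in 100 labelled samples, 98 of them as columns of 8 tables. A QuantSeq kit, which reads 3′ ends, was used per the labels' protocols. The values are TPM, deposited by the authors per the file headers, with 1 transcript per gene symbol. The submitters' processing notes list Bowtie2, STAR and HOMER, and the genome builds hg38 and mm10. No source used here gives aligner settings or strand handling. TPM divides by length, so levels of 3′ reads are not comparable between genes.

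Samples were grouped by labels into 32 groups. The liver table gives 8 columns for 10 labelled samples and names the diet but not the animal. The labels do not say whether replicates are separate cultures or animals. The p-values therefore reflect the spread among these libraries alone, and it may be technical.

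Each table was fitted alone with limma 3.58.1 under R 4.3.3 on log2(TPM + 1) with trend and robust settings. Genes with at least 1 TPM in at least 3 libraries (4 in liver) were kept, and p-values were adjusted by Benjamini-Hochberg over all of them. The fit was tested on simulated data. In total 34 comparisons were made. Alternatives were a pseudocount of 0.1, no filter, quantile normalization, voom on recovered reads, a replicate block and leaving out each library. Recovered reads were whole in 100% of the low values checked (within 0.1 read, genes of up to 3000 bases and up to 20 reads). Between replicates the chi-square per gene was at least 1.99 and no pair shared more than 0.89% of its values. None was counted as a repeat.

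The members and the lists of partners, EF-hand genes, genes of the chromosome 1 stretch and markers were chosen with earlier results of these data known. Members are named in each table, other S100 genes by table where they pass the filter, and the list genes by count with examples. Likeness over the time course was ranked by Pearson's r for S100A6, S100A10 and S100A11. Promoters come from RefSeq, and tables were read with data.table release 1.17.8 and figures drawn with Python 3.11.15, pandas 2.3.3 and matplotlib 3.10.9.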

Additional observations from a re-analysis of the deposited data

Results flagged for a closer look

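Of 13 groups of 4 columns (members in liver), 2 held a column far from the others, where chance gives about 1 in 20. S100a13 read 46.0 TPM in 1 liver on deficient diet, above 36.4 to 36.9 TPM in the others. S100a4 read 6.67 TPM in 1 liver on control diet, above 1.38 to 2.04 TPM in the others.

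Of 51 tests of whether an effect differed between conditions for a member, 21 passed (limma, adjusted p below 0.05). In the same comparisons 37.7% of all tested genes passed for day 12 against day 3, 53.7% for the IDO/TDO inhibitor, 22.5% for the AhR inhibitor, 14.4% for the AhR guide, 8.94% for Kyn and 0.247% for Ad-Cre, where 0 members passed. From day 3 to day 12 the deprivation effect in HepG2 grew for S100A11 (3.09), S100A2 (0.72), S100A16 (0.69), S100A10 (0.67) and S100P (0.53). With the IDO/TDO inhibitor it was smaller for S100A11 (−4.01), S100P (−1.56), S100A14 (−1.29), S100A2 (−0.91), S100A6 (−0.79) and S100A16 (−0.75). With the AhR inhibitor, whose libraries carry another date, it differed for S100P (−0.89), S100A4 (−0.69), S100A13 (0.60) and S100A16 (0.43). With the AhR guide it differed for S100P (0.84), S100A11 (−0.60) and S100A13 (−0.39). The Kyn effect differed with the AhR inhibitor for S100A11 (−1.29), S100A10 (−1.03) and S100P (0.26). The smaller terms that rest on single libraries are named with those libraries in the results. All terms but those of Kyn and Ad-Cre contain HepG2 deprivation differences, on which the genes were selected.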

How the results depend on the processing

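Of 138 calls of single members 103 held under every alternative, and of 1644 alternative values 1499 kept direction and call, 144 lost the call and 1 reversed: S100A10 with the IDO/TDO inhibitor in deprived cells, 0.0022 after quantile normalization. The count of members called moved beyond 1.5 times as follows. Quantile normalization gave 3 for Caco-2 (from 5) and 2 for the AhR guide in control medium (from 4). For the change of the deprivation effect with AhR inhibitor, no filter and voom each gave 2 (from 4), and for the AhR inhibitor in deprived cells, voom and the replicate block each gave 2 (from 1). No filter gave 0 for deprivation with IDO/TDO inhibitor (from 1). Leaving out 1 library gave 5 to 8 for deprivation without AhR inhibitor, 1 to 2 for the AhR inhibitor in deprived cells, 2 to 4 for the change of effect with AhR inhibitor, 0 to 1 for deprivation with IDO/TDO inhibitor, 3 to 5 for Kyn without inhibitor, 1 to 2 for deprivation with Ad-Cont, 0 to 2 for Ad-Cre in deprived cells and 0 to 1 for liver. The causes were not tested.

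In none of 27 comparisons did every same-numbered pair correlate above 0.1, and 11 of 81 such pairs did (r from −0.22 to 0.48). This check does not show that the samples were unpaired. The replicate block ended the call of S100A10 for Kyn with AhR inhibitor (limma, adjusted p = 0.0601). Liver columns carry no number. Quantile normalization moved the median of all genes by over 0.1 in 12 of 34 comparisons (−0.272 to 0.248) and the split of higher against lower calls by over 10 points in 19. Depth limits S100A2 in every human table, S100a2 in the mouse hepatocytes, S100A14 in HepG2 and S100A4 in the Kyn table, where it rests on 1 to 13 reads.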
